A study of Mus musculus with 24 samples.

Results

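Broad peaks are stretches of open chromatin that a single library reported as 1 uninterrupted peak longer than 3000 bp. They were collected on chromosomes 1 to 19 from 24 ATAC-seq peak lists of mouse hindlimb muscle, merged over lists where they overlapped, and kept where at least 2 lists held such a peak. This gave 130 regions out of 450450 merged regions that were called in 2 or more libraries, or 0.0289%. A further 136 regions were broad in 1 list only and were not kept. Of the 130, 54 were broad in lists of both stages, 30 in adult lists only and 46 in E18.5 lists only. The regions were chosen by the measured width of their peaks, so widths and stage classes are given as a description and were not tested.

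ATAC-seq marks open DNA by letting the Tn5 transposase insert sequencing adapters into it. Adult muscles came from 3 male FVB/NJ mice, an inbred strain, given as P56 in the series design but as 3 to 4 months old in the protocols. E18.5 muscles, of a late embryonic stage shortly before birth, came from 3 litters, each replicate pooling up to 5 male embryos of 1 litter. At both stages soleus and vastus intermedius were the slow-biased muscles, richer in slow-contracting fibres, and gastrocnemius and vastus lateralis the fast-biased ones, with 3 libraries for each muscle and stage and no other genotype or treatment. All 4 muscles of a number came from the same animal or litter, so libraries of a stage are not independent. Nuclei were taken from undigested tissue, with no sort described. In such bulk samples a change in the share of nuclei with an open region and a change in how open it is per nucleus cannot be told apart. The file names carry different library dates for the stages, so stage and date cannot be told apart either.

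Most open regions in a genome are short, because they mark a single promoter or enhancer where nucleosomes give way to transcription factors. Long open stretches are known at promoters rich in CpG sites, at genes of cell identity that carry clusters of enhancers next to each other, and at genes transcribed very strongly. Repeated sequence such as ribosomal DNA and nuclear copies of mitochondrial DNA can also give long peaks, since reads from many copies can pile up at a single place in the reference.

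Promoter sequence is shown for 6 genes because the classes of broad regions differed in their CpG content, which the width rule did not use. Below are the last 200 bases before the start of Atp2a1 and Gapdh, broad in adult lists only, and Eno3, broad in both. Those of 3 genes broad in E18.5 lists only (Igf1r, Sox12 and Ptch1) follow. Sequences are from RefSeq on GRCm38.p6, the C57BL/6J reference, from which FVB/NJ mice may differ, written 5′ to 3′ on the gene's strand, and capitals mark CG.
Atp2a1, chr7:126463074-126463273, minus strand: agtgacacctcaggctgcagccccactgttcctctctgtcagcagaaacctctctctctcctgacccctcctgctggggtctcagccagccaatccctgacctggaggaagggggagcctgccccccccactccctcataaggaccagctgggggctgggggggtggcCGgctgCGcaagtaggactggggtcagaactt
Gapdh, chr6:125165774-125165973, minus strand: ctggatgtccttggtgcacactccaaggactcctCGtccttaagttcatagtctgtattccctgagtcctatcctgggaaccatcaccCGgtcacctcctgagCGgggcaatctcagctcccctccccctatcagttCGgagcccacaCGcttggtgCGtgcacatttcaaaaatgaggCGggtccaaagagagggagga
Eno3, chr11:70656976-70657175, plus strand: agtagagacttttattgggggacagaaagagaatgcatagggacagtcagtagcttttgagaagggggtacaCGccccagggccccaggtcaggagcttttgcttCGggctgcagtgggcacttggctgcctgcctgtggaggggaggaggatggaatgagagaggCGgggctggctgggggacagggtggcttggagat
Igf1r, chr7:67952057-67952256, plus strand: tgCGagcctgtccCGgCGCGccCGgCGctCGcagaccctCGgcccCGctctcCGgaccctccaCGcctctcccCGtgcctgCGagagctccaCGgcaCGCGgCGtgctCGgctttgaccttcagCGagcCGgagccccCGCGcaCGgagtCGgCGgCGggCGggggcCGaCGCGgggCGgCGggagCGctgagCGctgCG
Sox12, chr2:152398047-152398246, minus strand: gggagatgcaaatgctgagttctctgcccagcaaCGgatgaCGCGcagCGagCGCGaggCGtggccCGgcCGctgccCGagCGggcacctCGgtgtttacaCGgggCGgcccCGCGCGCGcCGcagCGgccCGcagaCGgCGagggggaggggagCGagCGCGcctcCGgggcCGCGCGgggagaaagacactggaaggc
Ptch1, chr13:63565736-63565935, minus strand: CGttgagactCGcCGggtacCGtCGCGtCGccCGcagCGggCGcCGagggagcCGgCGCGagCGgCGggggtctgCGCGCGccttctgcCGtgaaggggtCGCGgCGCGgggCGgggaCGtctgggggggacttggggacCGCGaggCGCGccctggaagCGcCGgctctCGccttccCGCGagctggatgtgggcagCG
In these stretches Atp2a1 held 2, Gapdh 7 and Eno3 3 CpG sites. Igf1r held 35, Sox12 30 and Ptch1 36. These genes were picked for display after their values were seen, and the counts over all windows are given further on.

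The lists held between 115333 and 228137 peaks, with a median peak width of 381 ± 24.5 bp in adult lists and 418 ± 54.2 bp in E18.5 lists (mean ± SD, n = 12 each). The lists state no read depth, and their length was the only measure of it. Markers were read as a peak within 1 kb of the gene start, where the table of starts lists one. Of the muscle markers, Acta1 and Des had a peak in 12 adult and 12 E18.5 libraries, Ckm in 12 adult and 11 E18.5, Ttn in 12 adult and 7 E18.5, and Mylpf in 5 adult and 0 E18.5 libraries. Of the endothelial markers, Kdr had one in 12 adult and 12 E18.5 and Tie1 in 11 adult and 10 E18.5 libraries, and the fibroblast marker Pdgfra had one in 5 adult and 9 E18.5 libraries. Of the immune markers, Ptprc had one in 2 adult and 1 E18.5, Cd68 in 1 adult and 5 E18.5, and Cd3e in 3 adult and 0 E18.5 libraries. Several markers thus differed in calls between the stages, in both directions. Smooth muscle Acta2 had one in 8 adult and 12 E18.5 libraries, the adipocyte markers Adipoq in 3 adult and 2 E18.5 and Plin1 in 2 adult and 1 E18.5, and the erythroid markers Hba-a1 in 9 adult and 12 E18.5 and Hbb-bs in 0 adult and 1 E18.5 libraries. The part of other cell types in the broad regions was not tested.

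Broad peaks were scarce in every list, and adult soleus had the fewest. Adult soleus lists held 7, 8 and 5 of them, adult vastus intermedius lists 35, 17 and 24, adult gastrocnemius lists 31, 27 and 30, and adult vastus lateralis lists 31, 37 and 46. E18.5 soleus lists held 52, 46 and 25, E18.5 vastus intermedius lists 44, 20 and 12, E18.5 gastrocnemius lists 59, 38 and 16, and E18.5 vastus lateralis lists 31, 37 and 13. The 3 adult soleus lists thus lay below each of the other 21 lists, although they were not the shortest lists. They were also lowest in peaks over 2000 bp, with 450, 269 and 257, against 496 or more in each of the other 21 lists. Narrow soleus peaks at the single regions below thus go with few wide peaks in these lists as a whole. Litter 3 had the fewest broad peaks in each E18.5 muscle. Adult lists averaged 24.8 ± 13.0 and E18.5 lists 32.8 ± 15.8 broad peaks (SD, n = 12 each), a difference smaller than either spread. That spread mixes differences between muscles with those between animals or litters, so it does not measure variation between animals alone. Peaks over 2000 bp averaged 550.5 ± 150.5 in adult and 901.9 ± 229.1 in E18.5 lists. Peaks of that width were thus more frequent in E18.5 lists in general, not only at the regions named below.

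**Figure D1:**
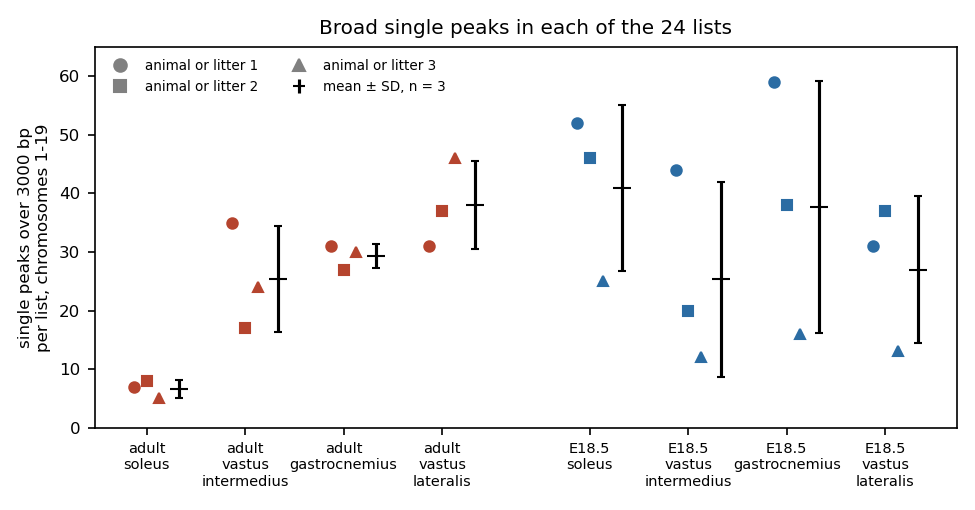
Number of single peaks over 3000 bp on chromosomes 1 to 19 in each list, by stage and muscle; symbols mark the animal or litter, and black bars the mean ± SD of 3 lists. Adult soleus sits between 5 and 8, below every other group, and litter 3 is the lowest of each E18.5 group.

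Most regions were broad in only a few lists. Of the 130, 51 were broad in exactly 2 lists, 27 in exactly 3 and 21 in exactly 4, and 7 were broad in 10 or more. A peak of any width was nonetheless called in all 24 libraries at 122 of the 130. Over the series, 17857 of 450450 regions were called in all 24 libraries. A long stretch is more easily met by some peak, so nothing is read from this difference. Both the number of peaks in a stretch and the length they covered varied between libraries. Mir22hg, for example, was 1 peak in every list and still ran from 2122 to 3062 bp in adult lists, while the Tcap region described further on had a median covered length of 2851 bp in adult and 589 bp in E18.5 lists. The regions were 3057 to 5663 bp long, with a median of 3412 bp.

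Both of the regions that were broad in all 24 lists lie over repeated sequence. One, at chr17:39843096-39848758, overlaps the ribosomal RNA-like genes Rn18s-rs5 and AY036118, and its widest peak measured 5637 to 5653 bp in adult lists and 5622 to 5653 bp in E18.5 lists. The other, at chr1:24611636-24616110, overlaps Gm10222 and Gm10925, which are copies of mitochondrial sequence. Its widest peak measured 4448 to 4471 bp in adult lists and 4441 to 4456 bp in E18.5 lists. How reads from many copies were placed is not recorded in the lists, so widths at these loci are uncertain. The same holds for a pair of regions in Sfi1, a region over 2 tRNA genes, the region near the defensin-like gene AY761185, and LOC108167694 near the end of chromosome 9. These were not drawn from a repeat annotation, so others may be missing. The region near Gm21119, 238827 bp from that near AY761185, may be one.

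Among single-copy genes, Kdm6b was broad in the most lists. It encodes a demethylase that removes the repressive mark on lysine 27 of histone H3, and its region lies inside the gene at chr11:69408307-69412123. The widest peak ran from 1401 to 3527 bp in adult lists, with a median of 3210 bp, and from 1486 to 3507 bp in E18.5 lists, with a median of 3445 bp. It was over 3000 bp in 8 adult and 10 E18.5 lists, and the ranges overlap almost fully.

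Eno3, the muscle form of the glycolytic enzyme enolase, shares a region with Pfn1, an actin-binding protein, whose start is also inside it, at chr11:70653399-70658128. Peaks measured 1740, 860 and 1858 bp in adult soleus, 4150, 3358 and 3288 bp in adult vastus intermedius, 3407, 3880 and 3481 bp in adult gastrocnemius, and 3543, 4264 and 3471 bp in adult vastus lateralis. At E18.5 they ran from 1979 to 3482 bp with a median of 3008 bp. All 9 adult lists outside soleus were broad here and none of the 3 soleus lists was, while 6 E18.5 lists were. Adult soleus lists held few wide peaks anywhere, so this is not read as particular to the region. E18.5 soleus lists measured 2962, 3374 and 3186 bp, above all 3 adult soleus lists.

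Several other regions of both stages were broad in mostly adult lists. Brd2, a reader of acetylated histones whose region also holds the start of H2-DMa, was broad in 8 adult and 1 E18.5 lists. Its widest peak averaged 1989 ± 617 bp in adult soleus and 3745 ± 113, 3365 ± 867 and 3875 ± 57.9 bp in adult vastus intermedius, gastrocnemius and vastus lateralis (SD, n = 3 each). Ppargc1b, a coactivator of mitochondrial genes whose body also holds the microRNA gene Mir378a, was likewise broad in 8 adult and 1 E18.5 lists, with 1755 ± 440 bp in adult soleus and 3171 ± 99.7 bp in adult vastus intermedius. Gadd45g, a stress-induced growth-arrest gene, was broad in 7 adult and 2 E18.5 lists, and Jun, a subunit of the AP-1 factor induced early after stimulation, in 6 adult and 2 E18.5 lists. Neither was broad in adult soleus. Lzts2, broad in none of the adult soleus lists, was broad in 6 adult and 1 E18.5 lists and Ubtf, a factor for ribosomal RNA transcription, in 4 adult and 2 E18.5 lists. At Ubtf adult soleus lists measured 2869, 1795 and 1973 bp and adult gastrocnemius lists 3280, 1789 and 1873 bp, so soleus did not stand apart there.

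Others leaned to E18.5. Efna5, an ephrin ligand that guides axons and cells, had a widest peak of 555 to 3034 bp in adult lists (median 1286 bp) and of 2655 to 4538 bp in E18.5 lists (median 3092 bp), and was broad in 1 adult and 8 E18.5 lists. Peg3, a paternally expressed imprinted gene that shares its region with the start of Usp29, was broad in 1 adult and 7 E18.5 lists, with medians of 2291 bp in adult and 3173 bp in E18.5 lists. The region of 5730420D15Rik, which also overlaps Socs2, an inhibitor of growth hormone signalling, was broad in 2 adult and 7 E18.5 lists. Eppk1 was broad in 2 adult and 6 E18.5 lists, and Adgrl2, an adhesion receptor, in 4 adult and 9 E18.5 lists. LOC108167694 was broad in 4 adult and 11 E18.5 lists and Zhx2 in 4 adult and 6 E18.5 lists. Gse1, in 4 adult and 5 E18.5 lists, and Casz1, in 4 adult and 4 E18.5 lists, both of them genes of nuclear proteins, were close to even. Over all 54 regions of both stages, 14 were broad in more adult than E18.5 lists, 25 in more E18.5 than adult lists, and 15 in equally many.

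**Figure D2:**
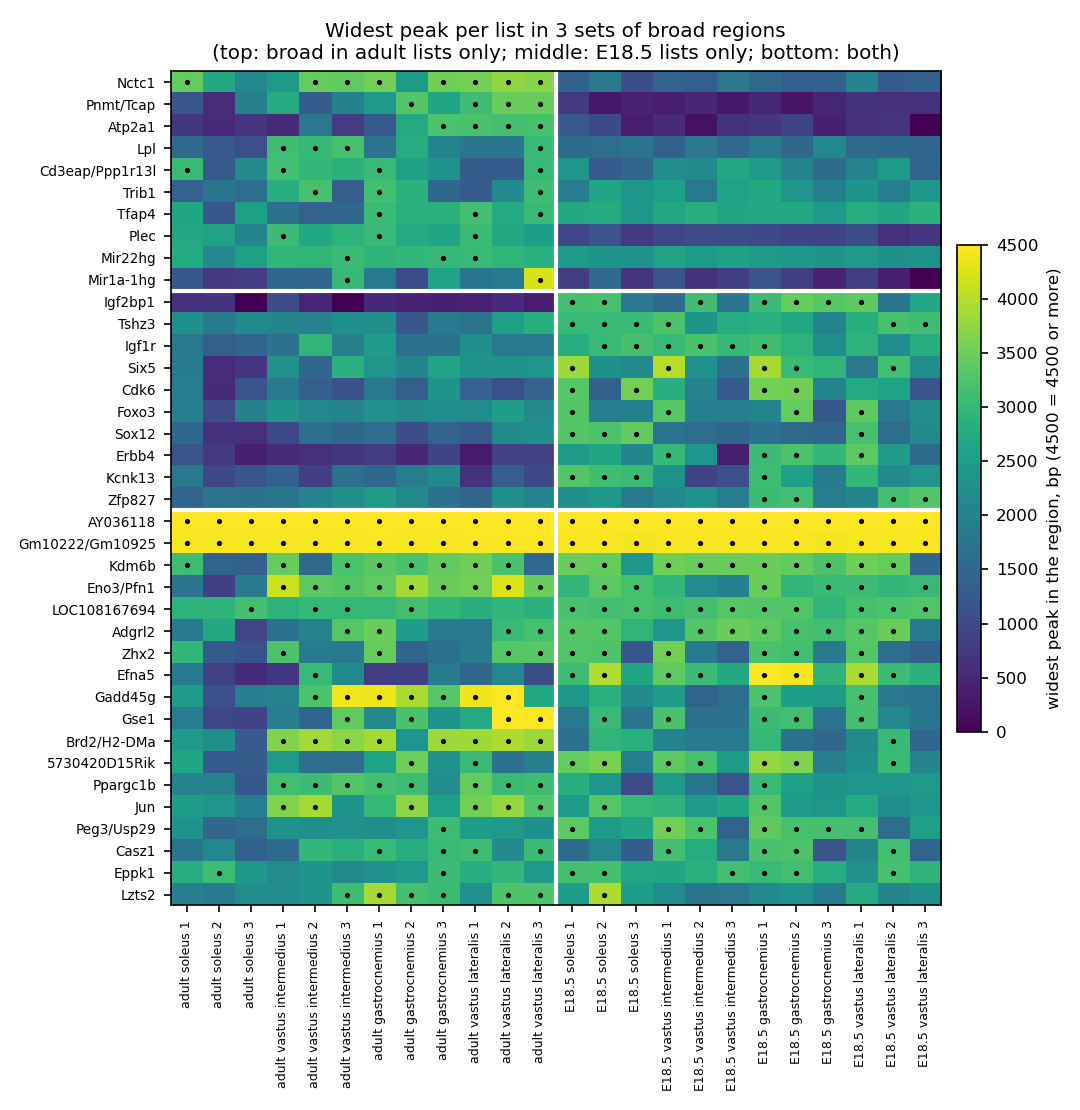
Colour gives the width in bp of the widest peak in each region (rows) and list (columns, adult left of the white line and E18.5 right); black dots mark peaks over 3000 bp. The top rows are the 10 leading regions broad in adult lists only, the middle rows the 10 leading regions broad in E18.5 lists only, and the bottom rows regions broad in both; dots are sparse in the 3 adult soleus columns.

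The region broad in the most adult lists and in 0 E18.5 lists lies in Nctc1, at chr7:142549921-142553722. Nctc1 is a non-coding RNA gene between the imprinted gene H19 and the muscle troponin gene Tnnt3, and it overlaps an enhancer known to be active in skeletal muscle. Its widest peak measured 3440, 2713 and 2141 bp in adult soleus, 2426, 3428 and 3404 bp in vastus intermedius, 3550, 2451 and 3505 bp in gastrocnemius, and 3555, 3755 and 3689 bp in vastus lateralis. E18.5 lists ran from 1088 to 2018 bp with a median of 1402 bp. All adult values lay above all E18.5 values. In E18.5 lists the same stretch was usually split, with a median of 2 peaks, against 1 in adult lists.

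Atp2a1 encodes SERCA1, the calcium pump that returns calcium to the sarcoplasmic reticulum of fast fibres, and its region, at chr7:126463054-126466389, lies almost wholly upstream of the gene start printed above, from 19 bp after it to 3316 bp before it. Its widest peak measured 734, 537 and 680 bp in adult soleus, 529, 1800 and 796 bp in adult vastus intermedius, 1271, 2744 and 3231 bp in adult gastrocnemius, and 3216, 3166 and 3198 bp in adult vastus lateralis. At E18.5 it ran from 0, where no peak was called, to 1259 bp, with a median of 649 bp. The 3 vastus lateralis lists stood close together, while all 3 soleus and 2 of the 3 vastus intermedius lists fell within the E18.5 range, so the stages overlap.

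Tcap, which encodes the titin-capping protein telethonin of the Z-disc, shares a region with Pnmt at chr11:98383065-98386731. Peaks there measured 1186, 569 and 1952 bp in adult soleus, 2767, 1304 and 1984 bp in adult vastus intermedius, 2440, 3298 and 2653 bp in adult gastrocnemius, and 3102, 3482 and 3446 bp in adult vastus lateralis. E18.5 lists ran from 234 to 761 bp with a median of 473 bp. Only adult soleus 2, at 569 bp, fell within the E18.5 range. Plec, which encodes the cytoskeletal linker plectin, was broad in 3 adult lists, all of adult 1. Its widest peak in adult lists (2031 to 3080 bp, median 2734 bp) separated fully from E18.5 (624 to 1148 bp, median 942 bp). Srl, which encodes the sarcoplasmic reticulum protein sarcalumenin, was broad in 2 adult lists (425 to 3364 bp, median 2385 bp), against 0 to 1562 bp with a median of 723 bp at E18.5.

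Lpl, the lipase that frees fatty acids from circulating lipoproteins, had peaks of 1542, 1263 and 1099 bp in adult soleus, 3115, 3019 and 3197 bp in adult vastus intermedius, 1722, 2785 and 2022 bp in adult gastrocnemius and 1768, 1760 and 3067 bp in adult vastus lateralis. At E18.5 the peaks ran from 1399 to 2103 bp. All 3 adult vastus intermedius lists were broad, and adult soleus, the other slow-biased muscle, had 2 lists below the E18.5 range and 1 within it. Gapdh, a glycolytic enzyme, was broad in 2 adult gastrocnemius lists and ran from 1674 to 3710 bp in adult lists (median 2246 bp) and from 774 to 2361 bp at E18.5 (median 1180 bp). The region of Rasgrp2 also overlaps Pygm, the muscle glycogen phosphorylase, and the Mark4 region lies near Ckm, the muscle creatine kinase.

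Mir1a-1hg hosts muscle microRNAs, and its region, at chr2:180397947-180403339, overlaps Mir133a-2. It was broad in 2 adult lists (741 to 4223 bp, median 1630 bp), against 0 to 1543 bp with a median of 822 bp at E18.5. Mir22hg hosts a microRNA abundant in muscle and heart, whose hairpin starts 444 bp beyond the region at chr11:75460211-75463272. Its main product, with the seed (bases 2 to 8) in capitals, is shown because this host gene was broad in 3 adult lists and in 0 E18.5 lists.
mmu-miR-22-3p: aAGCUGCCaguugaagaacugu
Mir22hg measured 2122 to 3062 bp in adult lists (median 2936 bp) and 2256 to 2587 bp at E18.5 (median 2405 bp), so its ranges overlap. Six4, a homeobox factor of the fast fibre program, was broad in 2 adult lists, with medians of 2338 bp in adult and 2183 bp in E18.5 lists. Dbp, an output gene of the circadian clock, was broad in 2 adult lists, with medians of 1896 bp in adult and 1184 bp in E18.5 lists. Trib1, Tfap4 and the Cd3eap and Ppp1r13l region completed the 10 leading regions, and Trib1 and Tfap4 had a larger median at E18.5 than in the adult. They measured 1958 bp in adult and 2361 bp in E18.5 lists for Trib1, and 2706 bp in adult and 2720 bp in E18.5 lists for Tfap4.

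**Figure D3:**
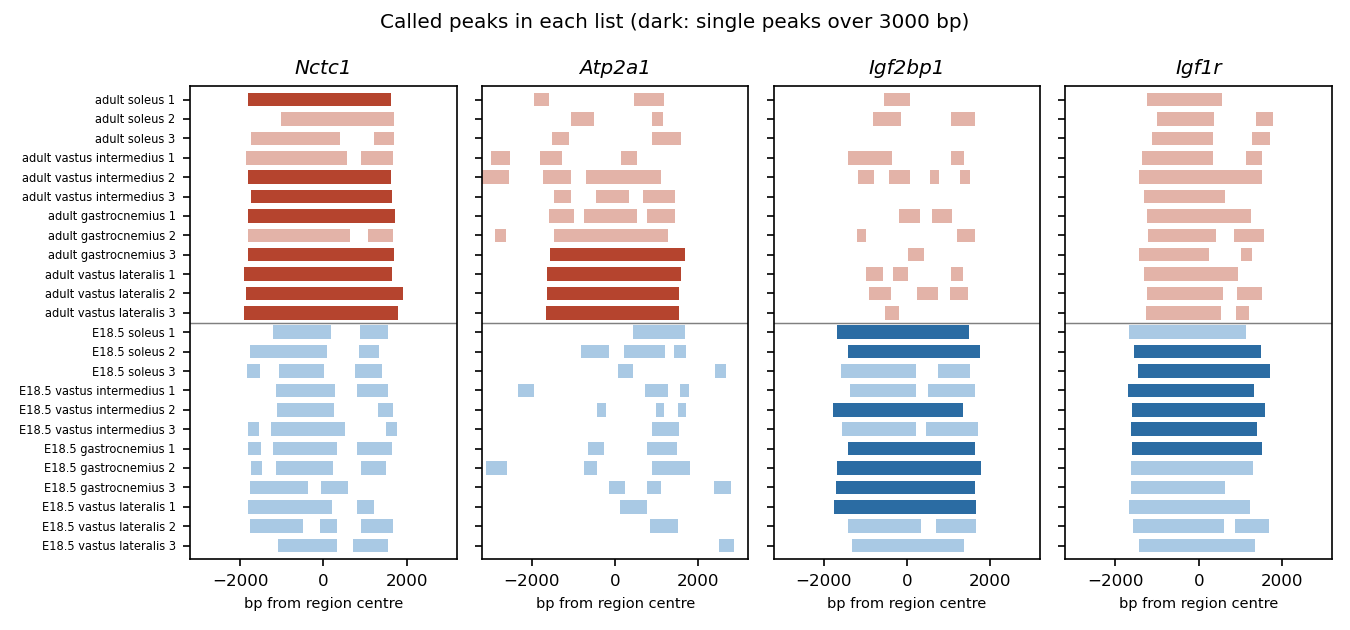
Called peaks in each list (rows, adult above the grey line and E18.5 below) by distance in bp from the centre of 4 broad regions; dark bars are single peaks over 3000 bp and pale bars shorter peaks, drawn only as far as the axis reaches. Nctc1 and Atp2a1 have dark bars in 8 and 4 adult lists, and Igf2bp1 and Igf1r in 7 and 6 E18.5 lists.

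The region broad in the most E18.5 lists and in 0 adult lists lies at Igf2bp1. It encodes an RNA-binding protein of embryonic tissues that binds Igf2 messenger RNA, and its region, at chr11:96004356-96007889, holds a gene end. The widest peak was 1064 bp or less in adult lists, with a median of 459 bp and no call in 2 of them. E18.5 soleus lists measured 3164, 3190 and 1793 bp, vastus intermedius lists 1565, 3121 and 1763 bp, gastrocnemius lists 3060, 3437 and 3333 bp, and vastus lateralis lists 3391, 1745 and 2696 bp. All E18.5 values lay above all adult values, and 7 of them passed 3000 bp.

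Igf1r, the receptor of insulin-like growth factor 1, holds its gene start in a region at chr7:67950380-67953784. Adult lists ran from 1362 to 2950 bp with a median of 1805 bp. E18.5 soleus lists measured 2806, 3037 and 3167 bp, vastus intermedius lists 3030, 3200 and 3008 bp, gastrocnemius lists 3118, 2913 and 2243 bp, and vastus lateralis lists 2904, 2188 and 2802 bp. The groups overlap, with adult vastus intermedius 2 at 2950 bp, gastrocnemius 1 at 2479 bp and vastus lateralis 1 at 2260 bp inside the E18.5 range. Cdk6, a kinase that drives entry into S phase, was broad in 4 E18.5 lists, with 559 to 2328 bp in adult lists (median 1394 bp) and 1193 to 3557 bp at E18.5 (median 2682 bp). E2f3, a factor that switches on genes of DNA replication, was broad in 4 E18.5 lists as well, with medians of 1124 bp in adult lists and 2764 bp in E18.5 lists.

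Tshz3, a zinc finger factor, was broad in 6 E18.5 lists, with 1231 to 2841 bp in adult lists (median 2102 bp) and 2032 to 3235 bp at E18.5 (median 2940 bp). Sox12, an HMG-box factor, was broad in 4 lists, including all 3 of E18.5 soleus, where it averaged 3316 ± 87.2 bp, against 1621 ± 111 bp in vastus intermedius, 1570 ± 101 bp in gastrocnemius and 2329 ± 792 bp in vastus lateralis of the same litters (SD, n = 3 each). The fourth broad list was vastus lateralis of litter 1, at 3192 bp. Adult lists reached at most 2241 bp there. Six5 lies beside Dmpk, the kinase gene of myotonic dystrophy, and their shared region was broad in 5 E18.5 lists, with medians of 2288 bp in adult and 2624 bp in E18.5 lists. Nfatc1, a factor through which calcineurin signals to slow fibre genes, was broad in 4 E18.5 lists, with 1059 to 1657 bp in adult lists and 1386 to 3284 bp at E18.5. Foxo3, a factor that promotes atrophy genes, was also broad in 4, but its median was 2136 bp in adult lists and 2006 bp in E18.5 lists. Zfp827 was broad in 2 gastrocnemius and 2 vastus lateralis lists of E18.5, with medians of 1898 bp in adult and 2267 bp in E18.5 lists.

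Erbb4, a neuregulin receptor, measured 333 to 1164 bp in adult lists (median 745 bp) and 374 to 3360 bp at E18.5 (median 2562 bp). Kcnk13, a potassium channel, was broad in all 3 E18.5 soleus lists, where it averaged 3166 ± 121 bp (SD, n = 3), and in 1 gastrocnemius list. Adult lists stayed at 2138 bp or less for Kcnk13. Ptch1, the receptor of hedgehog ligands, was broad in 2 E18.5 lists, with medians of 1260 bp in adult and 1658 bp in E18.5 lists, and so were the Wnt ligand Wnt9a and the Wnt receptors Fzd5 and Fzd8. Fzd7, another Wnt receptor, was broad in 3 adult and 2 E18.5 lists. Sfmbt2, an imprinted Polycomb-group gene, was broad in 2 E18.5 lists and ran from 0 to 546 bp in adult lists and from 581 to 3101 bp at E18.5, without overlap. Klf10, a factor induced early by growth factors, was broad in 2 fast-biased E18.5 lists.

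Full separation of the stages by width was rare even among the regions chosen for a stage. The ranges of the widest peak did not overlap in 5 of the 130 regions, namely Nctc1, Plec and Adamtsl4, which were wider in adult lists, and Igf2bp1 and Sfmbt2, which were wider in E18.5 lists. The same was true of 0.43% of the 450450 regions, wider in adult lists for 0.0941% and in E18.5 lists for 0.336%, and since width chose the members nothing is read from this difference. As the choice by width implies, over the 30 adult-only regions the median of the median widest peak was 2108 bp in adult lists and 1428 bp in E18.5 lists, and over the 46 E18.5-only regions it was 1412 bp in adult lists and 2164 bp in E18.5 lists. In 24 of the 30 and 41 of the 46 the median was larger in the stage of the class, which the choice of classes favours.

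Replicates gave a view of width in lists that had not chosen the regions. When all lists of one animal or litter number were set aside and the classes were remade from the rest, 15 to 27 regions were adult only, of which 7 to 9 were broad in the left-out adult and 1 to 4 in the left-out litter. E18.5-only regions numbered 22 to 44, of which 2 to 5 were broad in the left-out adult and 15 to 18 in the left-out litter. Of the adult-only regions, 11 to 21 were wider in the left-out adult and 4 to 6 in the left-out litter. Of the E18.5-only regions, 1 to 15 were wider in the left-out adult and 21 to 30 in the left-out litter. E18.5 lists held more wide peaks in general, and the same counts were not made over other regions. With 3 animals against 3, the smallest two-sided exact p possible is 0.1, and no test was made. Of the original classes, 21 of 30 adult-only regions were broad in at least 2 animals and 5 in all 3 (Nctc1, Tcap, Atp2a1, Lpl and Trib1), and 36 of 46 E18.5-only regions in at least 2 litters and 9 in all 3. Adult 1 carried 24 of the 30 adult-only regions and litter 1 carried 40 of the 46 E18.5-only ones.

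Muscles contributed unequally to the classes. Adult-only regions were broad in soleus for 3 regions (Nctc1, Six4 and the Cd3eap and Ppp1r13l region), in vastus intermedius for 17, in gastrocnemius for 19 and in vastus lateralis for 20. E18.5-only regions were broad in soleus for 34, in vastus intermedius for 25, in gastrocnemius for 31 and in vastus lateralis for 20. Among adult lists, 1 region was broad in 2 or more slow-biased lists and in no fast-biased list (Tmc6 and Tmc8, which share it), against 16 the other way, including Atp2a1, Tcap, Gapdh, Tfap4, Casz1, Pim1 and Mark4. At E18.5 the counts were 12, including Fzd7, Fzd5, Wnt9a, Gfra1 and Stat6, against 9, including Gadd45g, Zfp827, Fat3 and Klf10. The low total of broad peaks in adult soleus bears on the adult counts, and its part in them was not tested.

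Whether a region was called at all could be compared for hardly any broad region. A two-sided Fisher's exact test compared 12 adult with 12 E18.5 libraries, with Benjamini-Hochberg adjustment over 170267 testable regions. It called 6.09% of them, 1.55% with more adult and 4.55% with more E18.5 libraries. Muscles of the same animal or litter were counted as separate libraries, so its p-values are too small. Only 1 of the 130 broad regions could reach a p under 0.05 in that test, since almost all were called in every library. This was the Mark4 region, at chr7:19422838-19426419, called in 9 adult and 3 E18.5 libraries (exact p = 0.0391, adjusted p = 0.199), so 0 of the 130 passed. Between slow-biased and fast-biased libraries the same test called 0% of 48133 adult regions, with 1612 at an unadjusted p under 0.05. It called 0% of 49905 E18.5 regions, with 412 at an unadjusted p under 0.05. With 6 libraries against 6, even full separation gives a p that passes the adjustment only if very many regions separate fully. The 0% therefore does not show that calls were alike between these muscles. No broad region could be tested there.

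Genes known for roles in muscle or growth were counted from 18 lists of 431 names, of which 421 lie on chromosomes 1 to 19 in the annotation. In comparison, 147 of 33073 protein-coding and lncRNA genes, or 0.444%, had a broad region at them. Of 25 foetal growth and cell cycle genes 4 had one, with Igf2bp1, Cdk6 and Igf1r in E18.5 lists only and Peg3 in both. Of 40 myogenic and fibre type regulators 4 had one, among them Six4 in adult lists only, Nfatc1 in E18.5 lists only and Ppargc1b in both. Immediate early and stress genes had 3 of 41 (Jun and Gadd45g in both, Klf10 in E18.5 lists only). Metabolism genes had 2 of 22 (Lpl and Eno3), glucocorticoid, clock and atrophy genes 2 of 22 (Dbp and Foxo3), sarcomere and contraction genes 1 of 50 (Atp2a1) and signalling genes 1 of 40 (Ptch1). No broad region lay at any of the 25 limb patterning factors, 37 Hox genes, 31 extracellular matrix genes or the 7 lists of markers for other cell types. The lists were drawn up with earlier results of these data known, and their counts were not tested.

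Broad regions were often at gene starts. Of the 130, 69 held a listed gene start, 29 held a gene end whose strand was not read, 18 lay inside a gene, 12 between genes and 2 over other annotated genes, and 22 held starts on both strands. The midpoint of a region, which does not favour long ones, lay within 1 kb of a start for 42.3% of broad regions (52 of 123, chromosome 18 not being in the table of starts). This compares with 47.9% of the 17328 regions of those chromosomes that were called in all 24 libraries, and 4.63% of those called in 2 or more. The table also lacks the starts of some genes on other chromosomes, such as Myod1 and Pecam1, so these shares can be too low. The share for broad regions was thus near that for regions open in every library, and the difference was not tested. The share was 36.7% (11 of 30) for adult-only, 52.4% (22 of 42) for E18.5-only and 37.3% (19 of 51) for regions of both stages. With gene ends on either side in place of starts, which also counts ends whose strand was not read, it was 46.7% (14 of 30) for adult-only and 45.7% (21 of 46) for E18.5-only regions, so the classes differ in one count and not in the other.

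**Figure D4:**
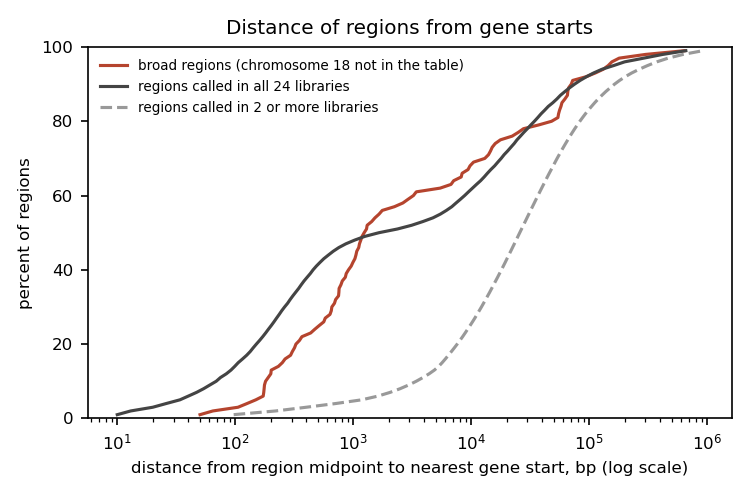
Cumulative percent of regions (vertical axis) by distance in bp from their midpoint to the nearest gene start (log scale), for broad regions and for regions called in all 24 or in 2 or more libraries. Within 1000 bp lie 42.3% of broad regions, 47.9% of regions called in all 24 libraries and 4.63% of those called in 2 or more. Genes missing from the table of starts were not counted.

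Base composition differed in its description between the classes. The 69 regions with a listed start held 114 promoter windows of 300 bases (250 before and 50 after the start) in the RefSeq table. Adult-only regions had a median of 15.5 CpG sites per window and a GC content of 59.2% over 24 windows. E18.5-only regions had 27 and 66% over 39 windows, and regions of both stages 21 and 64% over 51 windows. The median over all 31396 windows on these chromosomes was 7 CpG sites and 53% GC. The observed over expected CpG ratio was above 0.6 in 54.2% of adult-only, 79.5% of E18.5-only and 62.7% of shared windows, against 36.4% of all windows. Windows of the same gene overlap, so they are not independent. All windows were taken whether or not a peak was called there. Windows at other regions called in every library were not compared, so the higher CpG content is not read as particular to broad regions.

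**Figure D5:**
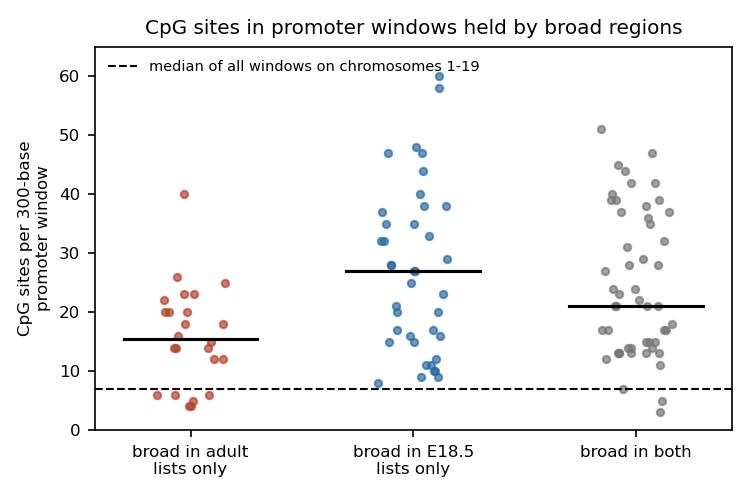
CpG sites per 300-base promoter window for windows held by broad regions of each class (points, spread sideways at random), with the median of each class as a black line and the median of all windows, 7, dashed. The medians are 15.5 for adult only, 27 for E18.5 only and 21 for both.

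Short motifs were searched on both strands of the same windows. GGGCGG, the core of an Sp1 box, was present in 54.2% of adult-only, 66.7% of E18.5-only and 66.7% of shared windows, and in 36.0% of all windows. TATAAA was present in 0% of adult-only, 12.8% of E18.5-only and 5.88% of shared windows, and in 13.6% of all windows. CAGCTG, an E-box that myogenic factors can bind, was present in 16.7% of adult-only, 10.3% of E18.5-only and 15.7% of shared windows, and in 16.3% of all windows. The motif GGGCGG contains CG, so its share moves with CpG content, and its comparison with all windows has the same limit. In the printed stretches, GGGCGG occurs in Igf1r, Sox12 and Ptch1 and not in Atp2a1, Gapdh or Eno3, and CAGCTG occurs in Atp2a1.

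Among the 12 regions between genes, 5 lay far from any protein-coding gene. The nearest one was Hrh4, 272778 bp away, for a region broad in 1 adult and 2 E18.5 lists, and Lrrc7, 173770 bp away, for a region broad in 2 E18.5 lists only. Irf2bp2 was 71563 bp from a region broad in 2 adult and 3 E18.5 lists, Cntn1 57233 bp from a region broad in 2 adult and 1 E18.5 lists, and Gm21119 56712 bp from a region broad in 1 adult and 1 E18.5 lists.

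Others lay close together. Within 250000 bp of each other were 11 neighbouring pairs, which involved 20 of the 130 regions. Rabep2 and Atp2a1, 17680 bp apart, were both adult only, as were Srl and Tfap4, 34194 bp apart, and the Cd3eap region and Mark4, 60274 bp apart. The Mark4 region stood in a stretch of chromosome 7 with the Six5, Vasp and Cd3eap regions. The only pair of opposite classes was Nsmce2, E18.5 only, and Trib1, adult only, 212480 bp apart.

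Near the width limit the choice of members was fine-grained. The second widest list peak, which decides whether a region is kept, was 3001 bp at Gm42517, 3001 bp at Ctdsp2 and 3009 bp at Mir1a-1hg, just inside the limit. Just outside it were Gm51701 at 2995 bp, a region with no gene on chromosome 7 at 2993 bp, and Nfib, a nuclear factor I gene, at 2988 bp. Values ran across the limit of 3000 bp without a gap.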

How the data were processed

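The authors deposited 1 peak list per library, with only chromosome, start and end positions of each peak on mm10 and no score, count or signal. Per the submitters' processing notes, tools included Bowtie2 2.4.4, SAMtools 1.14.0, MACS2 2.1.1 and bedtools 2.25.0. Calling thresholds and depth were not given in the sources used here. Chromatin without a called peak is not thereby closed.

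From the deposited positions, peaks were merged by any overlap, and a region was broad in a list holding a peak with end minus start over 3000 bp. Coordinates are 1-based on mm10 (GRCm38). Genes and promoter windows came from RefSeq GRCm38.p6 tables, in which starts were matched for 69 regions. Presence calls used Fisher's exact test (scipy 1.17.1) with Benjamini-Hochberg adjustment at 0.05, tested on simulated calls. Named are regions broad in the most lists overall and per stage, those next to the width limit, those at listed genes and those that could be tested. Regions chosen for display otherwise were chosen after their values were seen. Members and lists were chosen with earlier results of these data known. Muscles of a number come from the same animal or litter per the labels, and their residual calls correlated by 0.00633 on average in adult and 0.052 in E18.5 libraries. Alternatives covered width, number of lists, merging, distance, cover and left-out replicates. The values of 1 region are not reported here.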

Additional observations from a re-analysis of the deposited data

Results flagged for a closer look

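The difference in broad peaks per list between soleus and the vastus muscles ran in opposite directions at the stages in every animal and litter. Soleus minus vastus intermedius averaged -18.67 in adults and 15.67 at E18.5, and soleus minus vastus lateralis averaged -31.33 in adults and 14 at E18.5. The difference between the stages was not tested. Outside chromosomes 1 to 19, 5 regions on X and Y were broad in 2 or more lists, among them Klhl34 in 2 adult lists and 0 E18.5 lists. The number of broad peaks, the list length and the median peak width were checked within 6 slow-biased or 6 fast-biased lists of a stage. In these 12 checks no list stood far from the others. Where the muscles of a group lie apart, as adult soleus and vastus intermedius did in broad peaks, such a check can miss a list.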

How the results depend on the processing

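The number of broad regions follows the width limit. Over 2500 bp there were 527 regions (106 adult only, 179 E18.5 only), and over 4000 bp 7 (4 adult only, 1 E18.5 only), of which 57.1% had a midpoint within 1 kb of a start. Requiring 3 lists left 79 (9 adult only, 26 E18.5 only), and merging within 500 bp changed no count. A distance of 2.5 kb to a start gave 56.9%, against 51.2% of regions called in all 24 libraries, so the order seen at 1 kb turned. In an alternative chosen after seeing the data, the 257 widest peaks of each list gave 935 regions, 223 adult only and 203 E18.5 only, so the excess of E18.5-only regions did not hold there. It did not hold without litter 1 (35 adult only, 20 E18.5 only) or without litter 2 (35 adult only, 32 E18.5 only) either, but held without litter 3 (31 adult only, 39 E18.5 only). Leaving out a litter leaves fewer E18.5 than adult lists. That by itself lowers the E18.5-only count and raises the adult-only count, so these settings cannot decide whether the excess holds. Leaving out each animal or litter gave 96 to 121 regions, 12 to 35 adult only (12 without adult 1, 17 without adult 3), 20 to 54 E18.5 only (20 without litter 1) and 4417 to 10250 regions called between the stages (5336 without adult 1, 4417 without litter 1, 5481 without litter 2). With the animal or litter as a replicate block, calls between slow-biased and fast-biased libraries were 0 in adults and 0 at E18.5. The smallest p that the block test can give is larger than without blocks, so it could hardly call a region and is no check. Requiring peaks to cover 50% of a region gave 8460 stage calls, 14 of them broad regions, but that call depends on width. Depth limits every absence.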
